A study of Homo sapiens with 16 samples.

Results

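The splicing of the long EIF4G2 minigene was compared with that of the endogenous gene in 4 of the 16 libraries of the series, chosen as the RT-PCR libraries labelled Long (2 replicates) and NT (2 replicates). All came from HEK293T, a cell line of human embryonic kidney origin into which plasmids are readily introduced. NT cells were not transfected, so their amplicons come from the chromosomal EIF4G2 gene. Long cells carried a plasmid in which the CMV promoter, a strong viral promoter, drives EIF4G2 exons 15 to 21 with introns 15 to 20. This insert was cloned as the reference allele from genomic DNA of a human lymphoblastoid cell line, not of HEK293T. Long cells were harvested the day after transfection. The methods describe 2 biological replicates per condition. Both kinds of amplicon ended at a reverse primer in exon 21, but the forward primer lay in exon 15 for NT and in the plasmid sequence upstream of the minigene for long. The primer, the plasmid template, the promoter, the gene context, transfection and the cell line that supplied the sequence therefore changed together and cannot be told apart here. The same construct carrying the other allele (long_alt, 2 RT-PCR libraries) is given beside the results as a description and entered no test. The paper places the variant of long_alt in the splice site at the end of intron 17, so long_alt is not a further replicate of long. The same use was made of 1 direct RNA library of the long minigene, which was sequenced without PCR.

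EIF4G2 encodes a relative of the translation initiation factor eIF4G that lacks the part binding the cap-binding protein and serves non-canonical initiation. The spliceosome removes each intron by joining a 5′ splice site (5′SS), where an intron starts, to a 3′ splice site (3′SS), where it ends, and introns of the same transcript are not always removed in the order in which they are made. An intron that is left in is retained, whereas an exon is skipped when the splice sites on both of its sides are passed over. Reporters on plasmids are widely used to study these choices because their sequence can be changed freely, and the question addressed here is how the splicing of such a reporter compares with that of the gene from which it was taken.

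Each read listed a status for every intron that it spans. An intron was excised (YES), retained (NO), or skipped, in which case its 3′SS alone (SKP3SS), its 5′SS alone (SKP5SS) or neither of its annotated sites (SKP) was the site left unused. The 4 libraries listed 24951 to 29763 reads, of which 92.1% to 93.2% spanned exactly introns 15 to 20. Reads with an undetermined status made up 0.339% to 0.362% of these in NT and 0.701% to 0.768% in long and were left out. This left 24216 and 27654 reads in the NT replicates and 23000 and 26920 in the long replicates. A pattern with 0 reads in 1 of these libraries could still make up 0.0108% to 0.0130% of its reads (3 counts). Molecular identifiers were not used, so PCR copies cannot be recognised, and such limits and the intervals given below cover counting error only. Only EIF4G2 was measured, so the identity of the cells could not be checked against marker genes, and the plasmid sequence was not used here, so the origin of single reads was not checked.

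The region lies on the minus strand of chromosome 11 (GRCh38), and the 7 exons are all coding. Intron 18, at chr11:10799757-10800089, is the longest of the 6 introns with 333 nt, whereas the others measure 83 to 127 nt. The splice sites below are those that the results turn on, written 5′ to 3′ on the transcript strand, with the first 2 and the last 2 bases of the intron in capitals. The 5′ sites are those of introns 16 and 18 and an annotated alternative 5′SS inside exon 18.
5′SS of intron 16: ctaactGTaagtttc
5′SS of intron 18: tcccagGTaagagaa
5′SS inside exon 18: gagctgGTgagcatt
The 3′ sites are those of introns 18, 19 and 20, each of which was joined to a 5′SS other than that of its own intron in the products described here.
3′SS of intron 18: gcaggtggctttgtctcttcAGaaatt
3′SS of intron 19: aacaagacctctttctgtccAGcttct
3′SS of intron 20: tctttttttttttttttttaAGgcatg
Over the 9 positions of CAGGTAAGT, the sequence complementary to the start of U1 small nuclear RNA, the 5′SS of intron 18 had 8 matches, the most among the 6 introns, and that of intron 16 had 6. The site inside exon 18 also had 6 matches. Of the 20 bases before the final AG, 13 were pyrimidines in intron 18 and 19 in intron 20.

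Endogenous transcripts were almost entirely spliced at the annotated sites, and minigene transcripts less so. The groups were apart in skipped splice sites and overlapped in retained introns. All 6 introns were excised in 95.3% and 96.3% of the NT reads and in 79.6% and 84.3% of the long reads. The mean was 95.8% ± 0.747 in NT and 81.9% ± 3.36 in long (SD, n = 2 in each group here and below), a difference of -13.9 percentage points. A splice site was skipped in 1.67% and 1.37% of the NT reads and in 19.3% and 12.0% of the long reads, so that both long libraries lay above both NT libraries. The means were 1.52% ± 0.214 and 15.7% ± 5.18, a 10.3-fold difference that was larger than the spread between replicates. An intron was retained in 3.09% and 2.33% of the NT reads and in 1.27% and 4.10% of the long reads, and here the groups overlapped. The mean retained share was 2.71% ± 0.540 in NT and 2.69% ± 2.0 in long (two-sided exact permutation test, p = 1). In every comparison of percentages in which the groups did not overlap, the same exact test gave p = 0.333, the smallest value that 2 against 2 libraries allow, so none could pass a threshold of 0.05. Among reads without any skipped site, 96.9% and 97.7% were fully spliced in NT and 98.6% and 95.8% in long, and the groups overlapped.

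In reads skipping a site, at 18.9% and 16.9%, the long_alt libraries lay in the range of the long libraries. They lay outside that range in other classes. Fully spliced reads made up 77.4% and 75.4%, below both long libraries. Reads that left out exons made up 9.22% and 9.52%, above the 6.95% and 3.83% of the long libraries. The direct RNA library of the long minigene listed 1499 reads, of which 65.8% spanned exactly introns 15 to 20, a smaller part than in the amplicon libraries. Of the 981 direct RNA reads kept, 83.2% were fully spliced (95% Wilson interval 80.7 to 85.4), 11.8% skipped a splice site (9.95 to 14) and 4.99% retained an intron (3.80 to 6.54).

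Intron 18 was the intron at which the amplicons differed most. It was excised in 96.3% and 97.6% of the NT reads and in 81.4% and 86.4% of the long reads, a difference in means of -13.0 points. The other introns differed by -0.455 points at intron 15, where excision was 99.9% ± 0.0749 in NT and 99.4% ± 0.331 in long, to -5.27 points at intron 19. At each of the 6 introns, both long libraries were below both NT libraries. Over all 30 pairs of an intron and a status, 16 were higher in both long libraries than in both NT libraries (53.3%) and 7 were lower (23.3%). The 16 were all skipped statuses. These pairs are not independent, since 1 read that leaves out exons has a skipped status at several introns. Some rest on few reads, such as neither site of intron 15 used, with 1 and 1 reads in long and 0 and 0 in NT. The 7 comprised excision of each of the 6 introns and a skipped 3′SS of intron 20, at 0.244% and 0.387% in NT and 0.122% and 0.234% in long. At introns 16 to 20 the skipped share was higher in long by 3.21 to 13.5 points, which in arithmetic terms made up most or all of the lower excision, whereas at intron 15 it was higher by 0.154 points and the retained share by 0.301 points. Intron 18 was skipped in 1.12% and 0.553% of the NT reads and in 17.9% and 10.8% of the long reads. The long share was 14.3% ± 5.05, against 5.22% ± 1.95 at intron 16, 5.69% ± 2.18 at intron 17, 5.65% ± 2.02 at intron 19, 3.74% ± 1.56 at intron 20 and 0.188% ± 0.0662 at intron 15. Relative to NT, the skipped share was highest at intron 17 (22.4-fold) and lowest at intron 15 (5.56-fold). A skipped 5′SS of intron 15 had 0 reads in all 4 libraries, and the retained status overlapped between the groups at every intron.

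**Figure D1:**
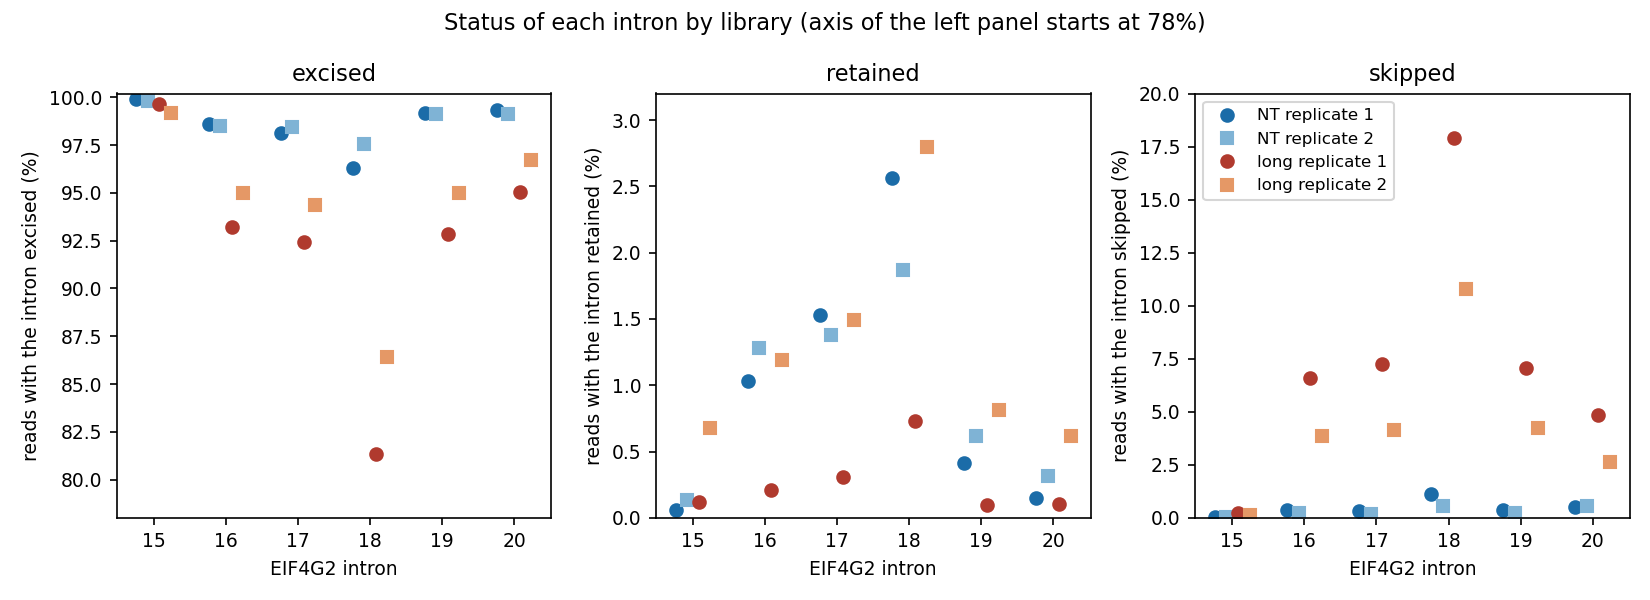
Share of reads (%) with each of introns 15 to 20 excised, retained or skipped, 1 point per library (NT blue, long red and orange). The 3 panels have different axes, and the axis of excision does not start at 0. In the skipped panel both long libraries lie above both NT libraries at every intron, with the widest gap at intron 18, whereas in the retained panel the libraries intermingle.

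The skipped statuses of neighbouring introns were then read together. A 5′SS joined to the 3′SS of a later intron means that the exons between them were left out, provided that the read did not enter them through other sites, which the statuses cannot exclude. A skipped 5′SS alone means that the annotated 3′SS was joined to a 5′SS that is not in the reference transcript (an unannotated 5′SS), and a skipped 3′SS alone means the reverse. Exons were left out in 0.297% and 0.130% of the NT reads and in 6.95% and 3.83% of the long reads, 25.2-fold more on average. An unannotated 5′SS was used in 0.867% and 0.452% of the NT reads and in 11.1% and 6.74% of the long reads, 13.6-fold more. An unannotated 3′SS was used in 0.463% and 0.727% of the NT reads and in 0.826% and 0.903% of the long reads, a 1.45-fold difference. All of these classes were higher in both long libraries than in both NT libraries, and so was the class in which neither end was annotated, at 0.0617% ± 0.000331 in NT and 0.799% ± 0.0632 in long. The makeup of the skipping reads also differed: left-out exons made up 13.6% ± 5.85 of them in NT and 33.9% ± 2.88 in long, whereas unannotated 3′SSs made up 40.3% ± 17.9 and 5.89% ± 2.29. Intron 18 was among the skipped introns in 66.9% and 40.4% of the NT skipping reads and in 92.6% and 89.6% of the long skipping reads. In the direct RNA library this share was 83.6% (75.8 to 89.3).

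The most frequent departure from full splicing in the minigene was the annotated 3′SS of intron 18 joined to an unannotated 5′SS. This product had 180 and 93 reads in NT (0.743% and 0.336%) and 2415 and 1693 reads in long (10.5% and 6.29%). The groups were far apart, and the means differed by 15.6-fold (0.540% ± 0.288 and 8.39% ± 2.98). As a share of the reads that used the 3′SS of intron 18 without leaving out an exon there, it made up 0.766% and 0.343% in NT and 11.4% and 6.78% in long. It was also present without PCR: in the direct RNA library it made up 8.05% of reads (6.51 to 9.92), between the 2 RT-PCR libraries of the long minigene. The long_alt libraries had 7.46% and 4.82%. No other intron came near this level: an unannotated 5′SS was joined to the 3′SS of intron 19 in 0.342% ± 0.0946 of the long reads and to that of intron 20 in 0.143% ± 0.0499.

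The files do not state which 5′SS these reads used. The gene annotation holds 1 transcript, listed without a defined coding sequence, in which the 3′SS of intron 18 is joined to the site inside exon 18 shown above, whose intron would span chr11:10799757-10800243 and measure 487 nt. Use of that site would keep 105 nt of exon 18 and remove 154 nt. Whether the reads used it was not tested.

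Most of the junctions that left out exons started at the end of exon 16. In the minigene the 5′SS of intron 16 was joined to the 3′SS of intron 20, which drops exons 17 to 20 (892 nt), in 888 and 446 reads (3.86% and 1.66%), against 46 and 15 reads (0.190% and 0.0542%) in NT. This 22.6-fold difference in means separated the groups, although the long replicates themselves differed by over 2 points. Joining of exon 16 to exon 20 had 171 and 130 reads in long and 4 and 0 in NT, and joining to exon 19 had 58 and 44 in long and 0 and 3 in NT. Skipping of exon 17 with exon 18 kept, by joining exon 16 to exon 18, had 231 and 176 reads in long and 4 and 3 in NT, or 0.829% ± 0.248 and 0.0137% ± 0.00401, a 60.6-fold difference in means that rests on these 7 NT reads. Exon 17 has 216 nt, a multiple of 3, so its loss keeps the reading frame. Joining of exon 18 to exon 20, which drops exon 19 (205 nt), had 215 and 224 reads in long and 10 and 11 in NT, or 0.883% ± 0.0726 and 0.0405% ± 0.00107. Per exon, exon 17 was left out in 4.51% ± 2.10 of the long reads, exon 18 in 3.65% ± 1.84, exon 19 in 4.43% ± 1.87, exon 20 in 2.95% ± 1.62 and exon 16 in 0.114% ± 0.0410. The NT means were 0.149%, 0.136%, 0.185%, 0.140% and 0.00800% for the same exons. None of the 31 transcripts of the gene annotation joins exon 16 to exon 21.

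**Figure D2:**
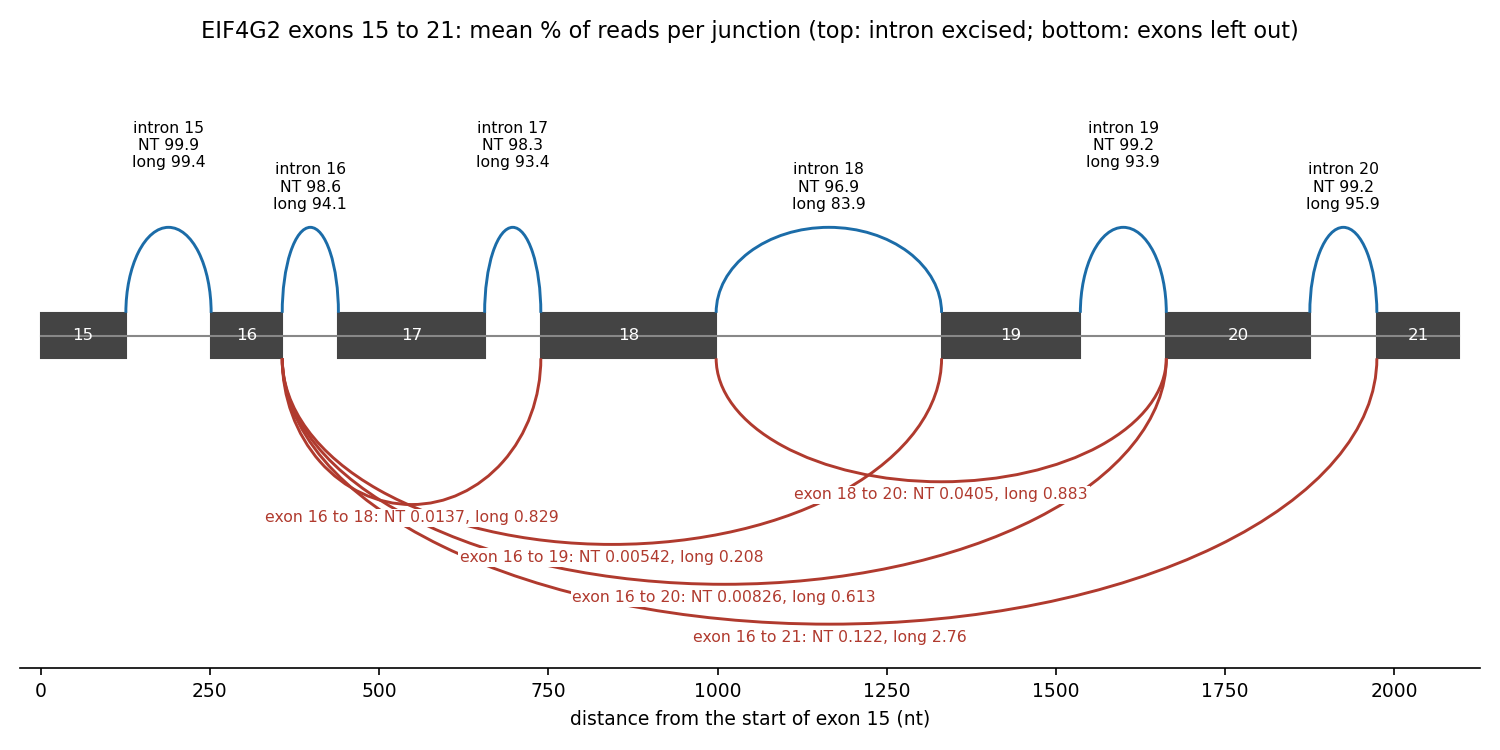
Map of EIF4G2 exons 15 to 21 to scale (nt from the start of exon 15), with the mean share of reads (%, n = 2 libraries per group) that excised each intron above the exons and that joined distant exons below them. All but 1 of the drawn exon-skipping junctions start at the end of exon 16, and the one from exon 16 to exon 21 is the most frequent, at 0.122% in NT and 2.76% in long.

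Skipping of exon 17 and of exon 19 met in the same reads. Of the long reads that joined exon 16 to exon 18, 18.6% and 26.1% also joined exon 18 to exon 20, whereas 0.778% and 0.658% did so among long reads that excised introns 16 and 17. In both libraries the share was higher in reads that had skipped exon 17, and this difference between reads was not tested. The long_alt libraries had 22.9% and 29.4% against 0.690% and 0.693%. In NT, none of the 4 and 3 reads that joined exon 16 to exon 18 joined exon 18 to exon 20, too few to give a share. The unannotated 5′SS of intron 18 was used in 8.66% and 3.98% of the long reads that skipped exon 17 and in 11.2% and 6.62% of those that excised introns 16 and 17.

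Direct RNA of the minigene gave a lower share for the junction that spans the most exons. Joining of exon 16 to exon 21 had 2 of 981 direct RNA reads (0.204%, 0.0559 to 0.740), an interval below both RT-PCR values, and the long_alt RT-PCR libraries were higher still, at 5.38% and 5.82%. Leaving out of any exon was found in 1.53% of direct RNA reads (0.929 to 2.51), against 6.95% and 3.83% by RT-PCR. Joining of exon 16 to exon 20 had 0.204% (0.0559 to 0.740) in direct RNA against 0.743% and 0.483% in long. Joining of exon 16 to exon 19 had 0% (0 to 0.390) against 0.252% and 0.163%. For joining of exon 16 to exon 18 (0.612%, 0.281 to 1.33) and of exon 18 to exon 20 (0.408%, 0.159 to 1.04), the direct RNA intervals included both RT-PCR values of long. The product without exons 17 to 20 is 892 nt shorter than the fully spliced product, and the part of product length in this difference was not tested. With 1 direct RNA library, these are values side by side and not a test of the methods.

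**Figure D3:**
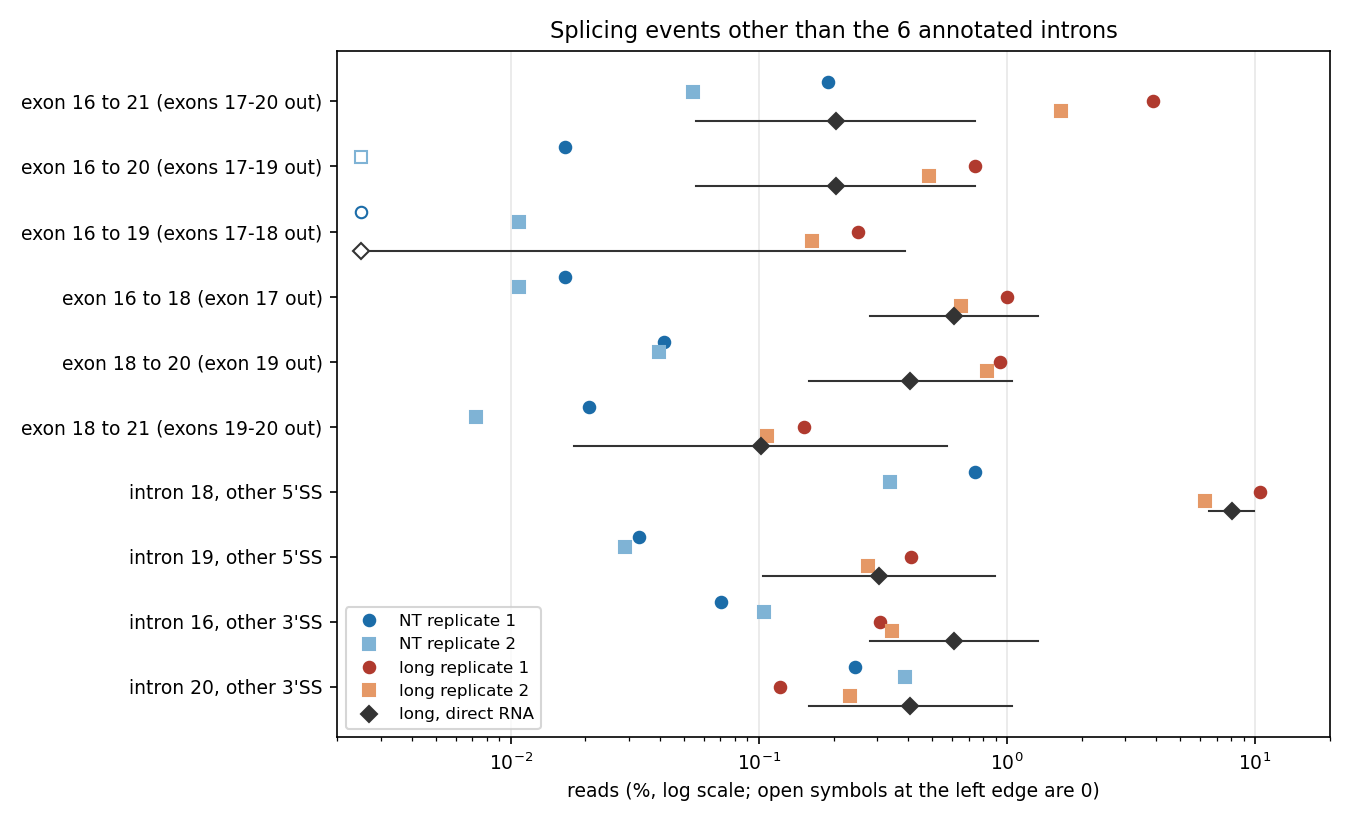
Share of reads (%, log axis) with each splicing event other than the 6 annotated introns, by library: NT circles and squares in blue, long in red and orange, and the direct RNA library of the long minigene as a diamond with its 95% Wilson interval. Both long libraries lie to the right of both NT libraries for every event drawn except the unannotated 3′SS of intron 20. The direct RNA diamond lies left of both long libraries for every exon-skipping event drawn, and its interval does so for exon 16 to 21.

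The share of reads with a retained intron overlapped between the groups at each intron. Intron 18 was retained in 2.56% and 1.87% of the NT reads and in 0.730% and 2.80% of the long reads. In each of the 4 libraries intron 18 was retained most, followed by intron 17 (1.53% and 1.38% in NT, 0.309% and 1.49% in long) and intron 16 (1.03% and 1.28% in NT, 0.209% and 1.19% in long). The long replicates lay on either side of the NT replicates for introns 18, 19 and 20, and long replicate 1 had the lowest value at introns 16 to 20, so no direction could be read for these introns. Intron 15 was retained in 0.0578% and 0.137% of the NT reads and in 0.117% and 0.680% of the long reads. Its mean was higher in long by 0.301 points and stayed higher under every alternative run. The groups overlapped, and they no longer did when reads retaining all 6 introns were left out (0.283 points, exact permutation p = 0.333). In the direct RNA library of the minigene, intron 18 was retained in 4.79% of reads (3.62 to 6.31).

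The makeup of the retaining reads did differ in several respects. Among the 749 and 644 NT reads that retained any intron, intron 18 was retained in 82.9% and 80.3%. Among the 293 and 1105 such long reads it was retained in 57.3% and 68.1%, so the groups did not overlap, with means of 81.6% ± 1.86 and 62.7% ± 7.64. The 49 such direct RNA reads retained it in 95.9% (86.3 to 98.9), above both RT-PCR libraries of the same minigene. Introns 16 and 17, upstream of intron 18, were also a smaller part of the long retaining reads. Intron 17 was retained in 54.3% ± 6.90 of the NT retaining reads and 30.3% ± 8.59 of the long ones, and intron 16 in 44.2% ± 15.3 and 22.7% ± 8.89. The direct RNA shares were 44.9% (31.9 to 58.7) for intron 17 and 36.7% (24.7 to 50.7) for intron 16, each above both long RT-PCR libraries. Reads in which an outermost intron was the only one retained were a larger part of the long retaining reads. Intron 15 was the only retained intron in 4 and 2 NT reads, or 0.534% and 0.311% of the retaining reads, and in 27 and 108 long reads, or 9.22% and 9.77%. Most of these long reads had skipped sites as well: in 17 and 66 of them no annotated site of introns 16 to 20 was used, and in 8 and 31 the other 5 introns were excised. Intron 20 was the only retained intron in 0.801% and 1.09% in NT and 7.85% and 4.43% in long. In the direct RNA library neither was the only retained intron in any of the 49 retaining reads (0 to 7.27). Joint retention of several introns had the lower shares in both long libraries. More than 1 intron was retained in 50.5% and 61.6% of the NT retaining reads and in 17.1% and 39.7% of the long ones, but in 53.1% (39.4 to 66.3) of the direct RNA ones, a value between those of the NT libraries. Among the RT-PCR libraries, reads retaining all 6 introns occurred in those of replicate 2, with 27 reads in NT, 36 in long and 48 in long_alt, and had 0 reads in those of replicate 1. The direct RNA library had 5 such reads of 981 (0.510%, 0.218 to 1.19). The statuses do not tell unspliced RNA from a DNA template, and this was not tested.

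Neighbouring introns were also compared in molecules that had excised 1 of a pair and retained the other. Such molecules need not be on the way to full splicing, and whether the shares reflect the order of removal was not tested. Of the reads that retained 1 of introns 17 and 18, intron 18 was the retained one in 82.8% and 78.5% in NT and in 77.5% and 84.5% in long, and the groups overlapped. In the direct RNA library of the long minigene it was the retained one in all 25 such reads (86.7 to 100). In the long_alt libraries, whose variant lies in the 3′SS of intron 17, this share was 36.8% and 32.8%. Of the reads that retained 1 of introns 18 and 19, intron 18 was the retained one in all 521 reads of NT replicate 1, in 99.4% in NT replicate 2, and in 95.1% and 97.2% in long. For introns 16 and 17, intron 17 was the retained one in 69.9% and 56.8% in NT and in 66.2% and 64.9% in long. Retention of intron 17 among the reads retaining intron 18 was 49.0% and 63.2% in NT and 16.1% and 42.0% in long, without overlap. In the direct RNA library of the minigene it was 46.8% (33.3 to 60.8), above both long RT-PCR libraries and below both NT libraries.

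**Figure D4:**
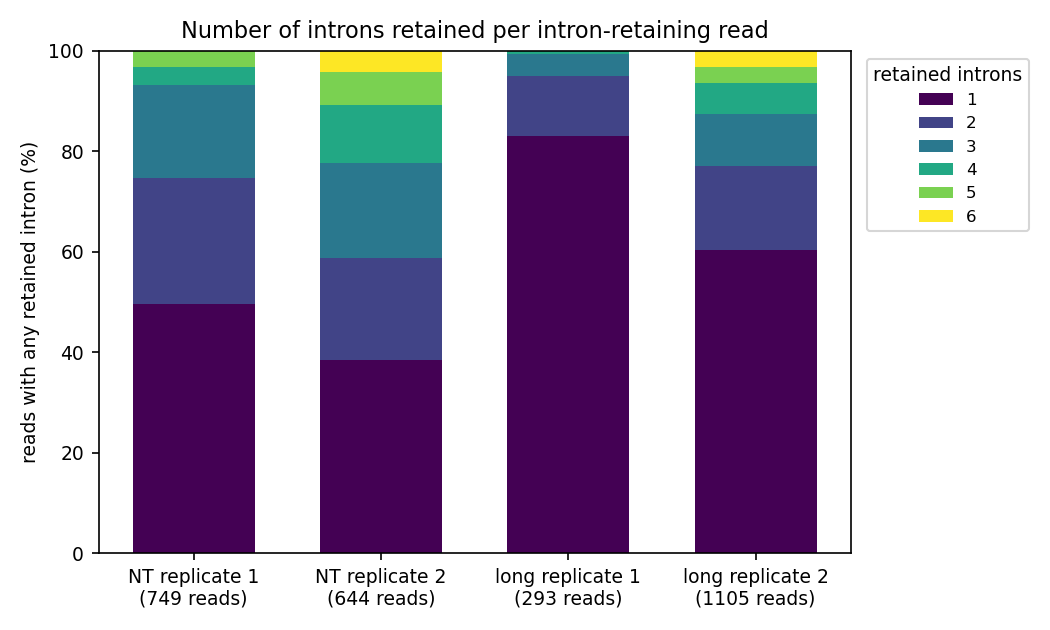
Number of introns retained per read, as a share (%) of the reads that retained any intron, in 1 stacked bar per library with the number of such reads below it. Reads with 1 retained intron make up 49.5% and 38.4% in NT and 82.9% and 60.3% in long, and of the 4 libraries drawn those of replicate 2 hold reads with all 6.

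The 6 statuses of a read, considered jointly, formed 195 combinations in the 4 libraries, of which 53 had 10 or more reads in any library. Of these, 21 reached 10 reads in both groups, 30 only in long and 2 only in NT. The 30 therefore entered through their reads in long, which favoured a difference but did not ensure one. In some of the 30 the groups overlapped, and some did not pass the test given below. The other 142 combinations held 0.221% to 0.244% of the NT reads and 0.836% to 0.917% of the long reads. All 53 were tested with edgeR's quasi-likelihood test on the read counts, with Benjamini-Hochberg adjustment over them. At an adjusted p of 0.05, 22 were higher in long (41.5% of those tested) and 2 were lower (3.77%). Without a test, 30 were higher in both long libraries than in both NT libraries (56.6%) and 6 were lower (11.3%). The median log2 fold change of all 53 was 2.96 and moved to 2.80 with TMM factors and to 2.66 with DESeq2's size factors. Each call rested on all 4 libraries: without any 1 of them no combination passed the adjusted threshold, while 13 to 19 were higher at an unadjusted p under 0.05.

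By kind, 19 of the 22 had a skipped site and no retained intron (of 32 tested), 2 had retained introns only (of 19 tested) and 1 had both. Among the 21 combinations that reached 10 reads in both groups, 3 were higher in long and 1 was lower, with a median log2 fold change of -0.19. Those 3 were the skipped 5′SS of intron 18, exons 17 to 20 left out and exon 19 left out, among 9 with a skipped site (median 0.01). The other 6 of the 9 each had a skipped site at 1 intron only, and they did not pass. None of the 11 with retained introns only passed (median -0.29). The combinations in which the groups shared enough reads therefore differed little at the median, and the longer list of calls consists of products with under 10 reads in each NT library. The fully spliced combination was lower, with a log2 fold change of -0.23 ± 0.06 (SE) and an adjusted p of 0.0332 in edgeR.

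Adjusted p values of single combinations are given for those that reached 10 reads in both groups, and the others are described by their reads. The adjustment ran over all 53 combinations, so these values also depend on the 30 that reached 10 reads only in long. A skipped 5′SS of intron 18 with all else excised was the most frequent of the 22, with 176 and 89 reads in NT and 2354 and 1651 in long, a log2 fold change of 3.96 ± 0.61 (edgeR adjusted p = 0.0174). The combination without exons 17 to 20 had 45 and 15 reads in NT and 886 and 443 in long, a log2 fold change of 4.52 ± 0.96 (edgeR adjusted p = 0.0216). Exon 17 left out alone had 2 and 3 reads against 112 and 90, or 42.0-fold by pooled counts per read (95% counting interval 17.7 to 131). Exon 19 left out alone had 10 and 11 reads against 165 and 165, with 4.02 ± 0.82 (edgeR adjusted p = 0.0216). All 4 were rare in NT.

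Exons 17 and 19 left out together had 0 reads in both NT libraries and 42 and 46 in long, at least 30.6-fold higher when 3 counts over both NT libraries are taken as the limit, without the counting error of the long reads (with it, the lower limit of the ratio was 24.3). Exons 16 and 17 left out together had 0 and 0 reads against 17 and 11, at least 9.92-fold higher on the same basis (7.38 with the counting error). Exons 17 to 19 left out had 4 and 0 reads in NT and 170 and 124 in long, and exons 17 and 18 left out had 0 and 2 in NT and 55 and 42 in long. The rest of the 10 with the lowest p were products with at least 1 end at an unannotated site. Unused 5′ and 3′ sites from intron 17 on, with an unannotated 5′SS joined to the 3′SS of intron 19, had 0 and 1 reads in NT and 44 and 38 in long, a ratio of 85.2 with a counting interval of 14.9 to 3406. The same start with no annotated site used up to the end of intron 20 had 0 and 1 against 37 and 31 reads, neither site of intron 18 alone had 2 and 2 against 24 and 17, and an unannotated 5′SS joined to the 3′SS of intron 19 with no site of intron 18 used had 1 and 0 against 20 and 17.

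Among the combinations with retained introns, intron 18 alone was the most frequent in both groups, with 252 and 142 reads in NT and 126 and 363 in long. Its log2 fold change was 0.29 ± 0.80 (edgeR adjusted p = 0.829), and the groups overlapped, with 1.04% and 0.513% of the reads in NT and 0.548% and 1.35% in long. Introns 16, 17 and 18 together had 99 and 101 reads in NT and 8 and 71 in long, and introns 17 and 18 together had 123 and 64 in NT and 13 and 84 in long. Neither passed the test (edgeR adjusted p = 0.392 and 0.519), although for the former both long libraries were below both NT libraries. Introns 16 and 18 retained around an excised intron 17 had 34 and 22 reads in NT and 2 and 6 in long, and both long libraries were below both NT libraries. In direct RNA of the minigene this combination had 3 reads (0.306%), against 0.140% and 0.0796% in NT. Introns 16, 17 and 18 together had 5 direct RNA reads (0.510%), against 0.409% and 0.365% in NT. Neither direct RNA share lay below the NT libraries, and both rest on few reads. The 2 called higher in long, both under 10 reads in each NT library, were the first and the last intron of the amplicon, each retained with the other 5 excised. Intron 15 had 0 and 1 such reads in NT and 8 and 31 in long, and intron 20 had 5 and 7 in NT and 17 and 41 in long. Retention of intron 15 with no annotated site of introns 16 to 20 used had 3 and 1 reads in NT and 17 and 66 in long. Of the frequent NT combinations that did not pass, intron 16 alone had 51 and 59 reads in NT and 20 and 70 in long, intron 17 alone 54 and 28 against 28 and 47, introns 16 to 19 together 23 and 63 against 2 and 32, and a skipped 3′SS of intron 20 had 54 and 103 against 23 and 55.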

How the data were processed

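Basecalling (guppy for the RT-PCR libraries) and spliced alignment to GRCh38 (minimap2) were done by the authors, who called the status of each EIF4G2 intron on uniquely mapped reads. For direct RNA the paper describes other basecalling software (MinKNOW or Dorado) and other alignment settings, so processing also differed between the 2 methods. The deposited values are whole-number counts of reads for each list of introns and statuses, without normalization and before any filter on the amplicon. Reads listing exactly introns 15 to 20 with no undetermined status were selected, the file's intron numbers being 21 minus the transcript's. Misaligned nanopore splice junctions would be counted as skipped sites, and limited-cycle PCR acted before counting. Percentages per library were compared by a two-sided exact permutation test over 6 assignments. Combinations with 10 or more reads in any library were tested with edgeR's quasi-likelihood test, with the selected reads as library size, after tests on simulated data. The named combinations were the 10 most frequent in each group and the 10 with the lowest p in each direction among those called. Junction coordinates and sequences come from GRCh38 and the GENCODE annotation. The members and lists were chosen with earlier results of these data known. Replicates of a group differed by more than sampling noise (chi-square divided by its degrees of freedom, 8.66 in NT and 16.5 in long). Python 3.11.15 and SciPy 1.17.1 were used. The alternatives were TMM and DESeq2 scaling, other minimum counts, undetermined reads kept, skipped reads left out, pooled replicates, log odds, other read sets, a replicate block and each library left out, and, added after the data were seen, each replicate number alone and all-retained reads left out.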

Additional observations from a re-analysis of the deposited data

Results flagged for a closer look

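These values lie outside the comparison of the long and NT amplicons. In the direct RNA library of the long minigene, the 3′SS of intron 18 was joined to an unannotated 5′SS in 8.05% of reads, above both NT amplicon libraries (0.743% and 0.336%). Of the amplicon reads of the long_alt minigene, 18.9% and 16.9% skipped a splice site, above 1.67% and 1.37% in NT. Reads that listed introns 15 and 16 only, and so ended or stopped being aligned before intron 17, made up 0.898% and 1.12% of all reads listed in the long libraries, against 0.349% and 0.484% in NT. None of these differences was tested.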

How the results depend on the processing

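With 2 libraries per group, the spread rests on 1 difference per group, and no exact test of percentages could pass its threshold. Of the 25 percentage results, 15 kept their direction under every alternative run and 10 reversed under at least 1. The reversed values were, for any retained intron, 0.0652 points with skipped reads left out, 0.115 with replicates pooled and 1.78 in replicate number 2 alone. With skipped reads left out, excision was higher in long by 0.396 points at intron 16, 0.456 at intron 17, 0.239 at intron 18 and 0.0109 at intron 19. In replicate number 2 alone, retention was higher in long by 0.116 points at intron 17, 0.928 at intron 18 and 0.195 at intron 19, and in replicate number 1 alone intron 20 gave -0.0484. Apart from the construction of each alternative, the cause was not tested. With 1 library left out at a time, the difference between long and NT ranged from -1.44 to 1.39 points for any retained intron, from 0.0198 to 0.582 for retention of intron 15 (the lowest without long replicate 2), from -0.948 to 0.0325 for retention of intron 16, -1.14 to 0.0405 for intron 17, -1.49 to 0.580 for intron 18, -0.418 to 0.296 for intron 19 and -0.129 to 0.387 for intron 20. It ranged from -16.3 to -11.5 for fully spliced reads, 10.5 to 17.8 for skipped reads, 3.62 to 6.74 for left-out exons, 6.08 to 10.5 for unannotated 5′SSs, 0.138 to 0.402 for unannotated 3′SSs and -24.3 to -13.5 for intron 18 among retaining reads.

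Of the status combinations, 22 were higher and 2 lower in long. The counts were 18 and 1 with TMM factors, 10 and 0 with DESeq2 (20 and 1 at an unadjusted p under 0.05), 34 and 0 with no minimum count (195 tested, 52 and 2 unadjusted) and 7 and 1 with a minimum of 50 reads (15 tested). Leaving out any library gave 0 and 0, with 13 to 19 higher and 0 to 4 lower at an unadjusted p under 0.05. The libraries of a group share replicate numbers 1 and 2 with the other group, but nothing states that a number marks a shared culture or day. Over 53 combinations, the deviations of same-numbered libraries had a correlation of 0.172 between NT and long, 0.254 between NT and long_alt and 0.889 between long and long_alt. With a replicate block, 14 were higher and 1 lower, and the exact test within replicate numbers cannot go below 0.5.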
